A study of Mus musculus with 6 samples.

Results

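The BCL2 family decides at the mitochondrial outer membrane whether a cell lives or undergoes intrinsic apoptosis, and 10 of its genes were followed here in LT-HSCs, the long-term hematopoietic stem cells, of mice. The members were chosen by symbol, each had 1 row among the 47561 rows of the count tables, and they fall into 3 classes. The guardians are Bcl2, Bcl2l1 and Mcl1, the effectors are Bax and Bak1, and the BH3-only genes are Bcl2l11, Bbc3, Pmaip1, Bid and Bad. RNA-seq had been made from LT-HSCs sorted from bone marrow of mice lacking Piezo1 by label (knockout, KO), which encodes a mechanically gated cation channel, and of control mice labelled wild type, with 3 libraries in each group. No treatment is labelled for either group, and the labels used here give neither the allele, the promoter or cell type of any Cre, the strain nor the age. The titles of all 3 KO libraries say Piezo1 KO, whereas 2 genotype entries, those of KO replicates 2 and 3, read Piezo2 and Piezo3, and the grouping follows the titles. The labels do not say that each library came from a separate mouse, so p-values measure the spread between these libraries, which may be technical in part.

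Guardian proteins hold the effectors in check by binding them and by sequestering BH3-only proteins. Once activated, Bax and Bak1 oligomerise and permeabilise the outer membrane, cytochrome c escapes, and Apaf1 assembles the apoptosome that activates caspase 9. BH3-only proteins report stress to this switch. Mcl1 in particular is known from mouse knockouts to be required for the survival of hematopoietic stem cells, and forced expression of Bcl2 in the mouse blood system is known to enlarge the stem cell pool.

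Library totals lay between 59435258 and 64653956 counts, and 16022 genes passed the filter on low counts, among them 9 of the 10 members. A count of 0 allows up to 3 counts, or 0.0439 to 0.0538 CPM (counts scaled to the library total by trimmed mean of M values) depending on the library, for counting error only. Piezo1, the targeted gene, had 4.27, 7.98 and 9.44 CPM in KO replicates 1 to 3, against 16.9, 7.01 and 24.2 CPM in control replicates 1 to 3. The library labelled control replicate 2 thus lay inside the KO range, the log2 fold change was -1.15 (SE 0.56), and the adjusted p was 0.508 in edgeR's quasi-likelihood test. The labels used here do not say which part of Piezo1 was deleted, so whether these reads come from it is unknown. All 10 LT-HSC markers listed, among them Procr, Slamf1 and Mecom, were detected in every library, with a summed level of 811 to 1075 CPM in KO and 925 to 1268 CPM in control libraries. Within that sum the markers differed in direction. Kit, the stem cell factor receptor, had 322, 292 and 343 CPM in KO replicates 1 to 3, against 106, 223 and 225 CPM in control replicates 1 to 3, and was higher in every KO library. Ly6a, which encodes Sca-1, had 89.0, 206 and 72.7 CPM in KO replicates 1 to 3, against 323, 372 and 283 CPM in control replicates 1 to 3, and was lower in every KO library. Procr had 9.66, 26.7 and 4.98 CPM in KO replicates 1 to 3, against 67.0, 56.4 and 22.6 CPM in control replicates 1 to 3, with overlap. Raw counts of the 16022 tested genes were compared between libraries by a mean chi-square per gene, in which genes with high counts weigh most. By this measure control replicate 3 was nearer to the KO libraries (258 to 321) than to control replicates 1 and 2 (364 and 376).

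Over the family, none of the 9 tested members passed an adjusted p of 0.05, and neither did any of the 16022 genes tested with edgeR (0.00% in each direction, lowest adjusted p 0.172). DESeq2 on the same counts called 244 genes higher (1.52%) and 286 lower (1.79%), of which none was a member. By an unadjusted edgeR p under 0.05, 871 genes were higher (5.44%) and 896 were lower (5.59%), and 1 of the 9 tested members, Bcl2, was among the higher ones. The guardians had log2 fold changes of 0.01 to 1.01 with a median of 0.66, the 2 effectors -0.08 and 0.21 with a median of 0.07, and the 4 tested BH3-only genes -0.35 to 0.48 with a median of 0.03. The median over the 9 members was 0.18, with 6 positive and 3 negative values, against a median of 0.03 over all tested genes, of which 52.2% were positive. With so few genes in a class, single libraries moved these medians: that of the guardians was 0.01 without KO replicate 3, that of the effectors 0.49 without control replicate 3 and that of the BH3-only genes -0.35 without KO replicate 1.

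**Figure D1:**
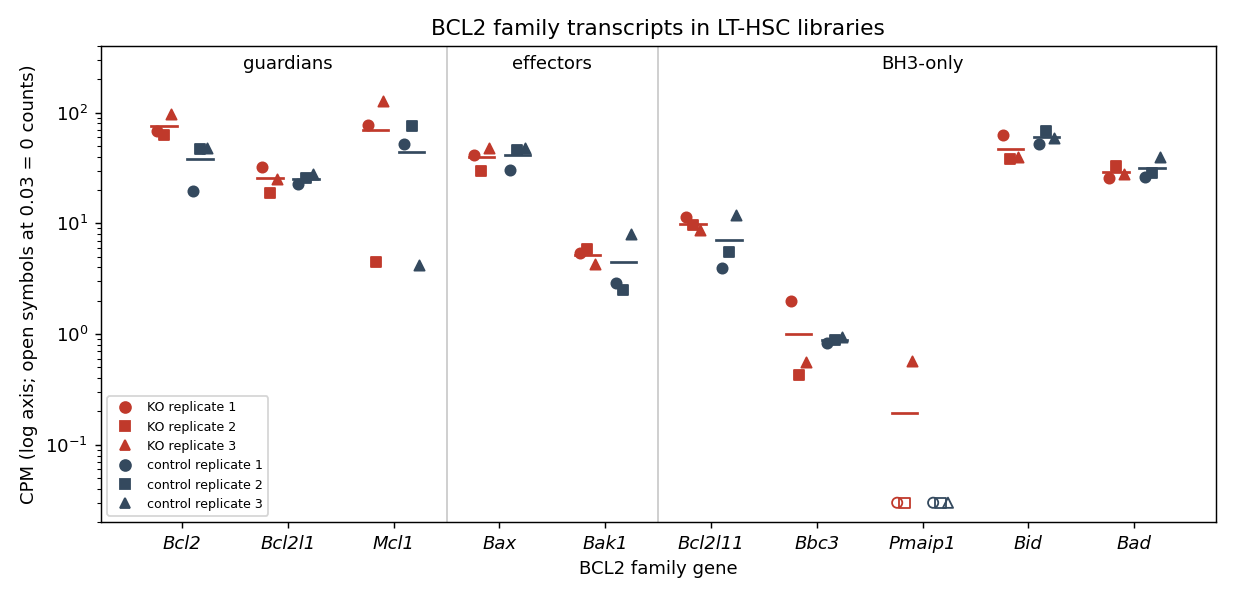
Level of each of the 10 genes in each library, in CPM on a log axis, with KO libraries in red to the left of control libraries in blue, horizontal bars at group means and open symbols for a count of 0. Bcl2 is the 1 gene whose KO and control libraries do not overlap, and Mcl1 shows 1 library far below the other 2 in each group.

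Among the guardians, Bcl2, the founding survival protein of the family, had the smallest p. It had 68.7, 62.7 and 98.0 CPM in KO replicates 1 to 3, against 19.7, 46.7 and 48.0 CPM in control replicates 1 to 3. Every KO library was above every control library, and control replicate 1 lay well below its own group. Such separation with KO on the higher side was seen for 1722 of the tested genes (10.7%). Bcl2 had a mean of 76.5 ± 18.9 CPM (SD, n = 3) over the KO libraries and of 38.1 ± 16.0 CPM (SD, n = 3) over the control libraries. Its log2 fold change was 1.01 (SE 0.37), with an unadjusted p of 0.0296 and an adjusted p of 0.397 in edgeR's quasi-likelihood test. DESeq2 gave an adjusted p of 0.124 and limma-voom 0.292. Without control replicate 2, the library in which Piezo1 went against the label, the value was 1.16 (adjusted p 0.354 in edgeR). With control replicate 1 left out it was 0.69 (unadjusted p 0.0359, adjusted p 0.591 in edgeR), the lowest value with 1 library left out. Without KO replicate 3, in which Bcl2 was highest, it was 0.78 with an unadjusted p of 0.104 in edgeR, and with trends on gene length and GC content removed it was 0.68.

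The RNA was taken from sorted cells in bulk, so fewer cells of a type and less RNA per cell cannot be told apart. Markers of other lineages also differed between the groups. The summed level of 8 erythroid markers was 7190 to 24702 CPM in KO and 474 to 4094 CPM in control libraries, with 1 marker at 0 in control replicate 1 and none at 0 elsewhere. The sum of 7 megakaryocyte and platelet markers was 1852 to 2756 CPM in KO and 952 to 1240 CPM in control libraries, with none at 0 in any library. Like Bcl2, both sums, and Kit, were higher in every KO library than in every control library, and their part in the Bcl2 difference was not tested.

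Because Bcl2 was the member with the smallest p and Mcl1 the one with the widest spread between replicates, the 250 bases before the annotated start of each are shown from RefSeq on GRCm38.p6, 5′ to 3′ on the gene's own strand. Those of Bcl2 lie at chr1:106714291-106714540 on the minus strand and those of Mcl1 at chr3:95658471-95658720 on the plus strand. Capitals mark matches to 6 motifs searched on both strands: the TATA box TATAAA, the CCAAT box, the GC box GGGCGG, the E-box CACGTG, the cAMP response element half-site TGACG and the ETS core CGGAAG.
Bcl2: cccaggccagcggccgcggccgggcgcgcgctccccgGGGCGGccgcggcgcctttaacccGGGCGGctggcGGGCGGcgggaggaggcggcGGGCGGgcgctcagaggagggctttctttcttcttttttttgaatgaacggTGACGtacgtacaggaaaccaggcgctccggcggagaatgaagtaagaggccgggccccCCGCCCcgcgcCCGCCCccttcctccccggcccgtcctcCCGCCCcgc
Mcl1: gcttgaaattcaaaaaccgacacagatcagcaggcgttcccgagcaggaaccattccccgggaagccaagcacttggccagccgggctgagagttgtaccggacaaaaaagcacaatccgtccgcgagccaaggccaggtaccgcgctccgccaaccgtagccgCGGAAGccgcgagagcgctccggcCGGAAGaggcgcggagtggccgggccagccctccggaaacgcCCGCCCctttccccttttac
The Bcl2 window had a GC content of 74.8% and held 7 GC boxes and 1 half-site of the cAMP response element. The Mcl1 window had a GC content of 64.4% and held 1 GC box and 2 ETS cores, and no matches overlapped. Over 32851 windows of the same length the median GC content was 52.4%. In these windows the GC box was found in 32.7%, the half-site in 17.8% and the ETS core in 13.6%. Neither window held a TATA box (12.4% of all windows), a CCAAT box (33.8%) or an E-box (6.02%). The RefSeq gene span of Mcl1 begins further upstream, at base 95656944 of chromosome 3, so the Mcl1 window precedes 1 of its starts and not the span.

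Arid1a, a subunit of the SWI/SNF chromatin remodelling complex, followed Bcl2 most closely over the 6 libraries, with a Pearson r of 0.996 of log2 CPM. It had 147, 149 and 200 CPM in KO replicates 1 to 3, against 70.2, 118 and 123 CPM in control replicates 1 to 3. Wiz, a zinc finger protein of histone methyltransferase complexes, had an r of 0.995, and Niban2 one of 0.993. All 3 were highest in KO replicate 3 and lowest in control replicate 1, as Bcl2 was. Of 10809 genes compared, 673 had an r over 0.9, so a close match over 6 libraries was common.

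Bcl2l1, which encodes Bcl-xL, the guardian best known for keeping erythroid cells and platelets alive, had 32.3, 19.0 and 25.0 CPM in KO replicates 1 to 3. The control replicates had 22.8, 25.5 and 27.7 CPM. The control values lay inside the KO range, and the group means were 25.4 ± 6.69 CPM in KO and 25.3 ± 2.44 CPM in control libraries (SD, n = 3 each). The log2 fold change was 0.01 (SE 0.28, adjusted p 0.998 in edgeR), and its sign turned under other scalings. Counts per gene do not separate the long, protective product of Bcl2l1 from the short, death-promoting splice form, and the same holds for Mcl1.

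Mcl1, a guardian whose mRNA and protein both turn over quickly, had 76.8, 4.44 and 127 CPM in KO replicates 1 to 3, against 52.4, 75.3 and 4.18 CPM in control replicates 1 to 3. These levels rest on 4586, 268 and 7955 counts in the KO libraries and on 3181, 5147 and 233 counts in the control libraries, far above the floor for a count of 0. KO replicate 2 and control replicate 3 were both low, while the other 4 libraries lay at 52.4 CPM or above. The highest library exceeded the lowest 28.7-fold in KO and 18.0-fold in control, and of the 10810 genes averaging at least 5 CPM 0.500% had a wider range in KO and 2.04% in control. The log2 fold change was accordingly uncertain, 0.66 with an SE of 1.20 (adjusted p 0.909 in edgeR). Without the 2 low libraries, a choice made after seeing the data, it was 0.68 with an SE of 0.35 (unadjusted p 0.109, adjusted p 0.518 in edgeR). Without KO replicate 3 alone it was -0.13, without control replicate 3 alone 0.12, and without control replicate 2 alone 1.26.

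The lowest of the 4 higher libraries exceeded the higher of the 2 low ones 11.8-fold for Mcl1. These sets of libraries and a mark of 8-fold were taken from the values of Mcl1 itself, so the counts that follow describe how many other genes share its pattern and give no test. A gap of at least 8-fold between the same sets was found for 2 of the 10810 genes averaging at least 5 CPM, which were Mcl1 and Fos, and for Mcl1 alone among the 7097 genes averaging at least 20 CPM. Fos, an immediate early gene named here after its values were seen, had 3.58, 0 and 57.7 CPM in KO replicates 1 to 3. The control replicates had 11.2, 1.02 and 0.108 CPM. A range of at least 10-fold in both groups was seen for 42 genes (0.389%) at the lower level and 13 (0.183%) at the higher level.

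**Figure D2:**
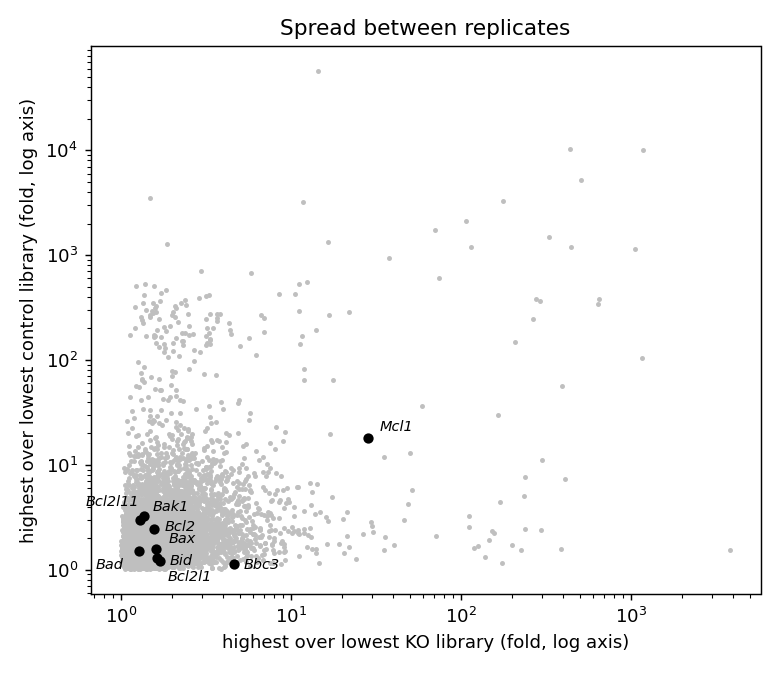
Ratio of the highest to the lowest library within KO on the x axis and within control on the y axis, both on log axes, for genes averaging at least 5 CPM (grey) and the 9 tested family members (black). Mcl1 lies at 28.7-fold in KO and 18.0-fold in control, apart from the other 8 members, which stay under 5-fold in both groups.

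Granulocyte markers, summed over 10 genes, reached 12212 CPM in control replicate 3, the library with the lowest Mcl1, against 176 and 224 CPM in the other 2 control libraries. In KO replicate 2, the other library with low Mcl1, the sum was 603 CPM, between the 120 and 1174 CPM of KO replicates 1 and 3. Different genes carried these sums. In control replicate 3 they were mostly S100a8 (4458 CPM), S100a9 (2998), Ngp (2018) and Camp (1931), whereas Prtn3 had 131 CPM there and 154 and 165 CPM in control replicates 1 and 2. In KO replicate 1 and control replicate 1 most of the sum was Prtn3, at 114 and 154 CPM. Elane, Mpo and Ctsg stayed at 5.06 CPM or below in every library. Of the 10 genes, 4, 1 and 2 were at 0 in KO replicates 1 to 3, against 2, 2 and 0 in control replicates 1 to 3. Their part in the Mcl1 values was not tested.

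Scaled per kilobase of the longest matched transcript, the 3 guardians together came to 44.6, 17.4 and 60.6 CPM per kilobase in KO replicates 1 to 3. The control replicates came to 26.9, 38.4 and 18.7 CPM per kilobase. Mcl1 made up 50.4, 7.47 and 61.5% of this sum in KO replicates 1 to 3, against 56.9, 57.3 and 6.55% in control replicates 1 to 3. On this scale Mcl1 was the major guardian transcript in 2 libraries of each group and the least abundant in the third. On coding length it was the least abundant in the same 2 libraries, KO replicate 2 and control replicate 3, but Bcl2 exceeded it in KO replicates 1 and 3, at 44.0 and 45.8% of the sum against 35.0 and 42.4% for Mcl1. Where it was low, Bcl2l1 and Bcl2 made up the rest, with Bcl2 at 50.1% of the sum in KO replicate 2 and 35.7% in control replicate 3. The mean share of Bcl2 on coding length was 54.5% in KO and 40.8% in control libraries, against 31.3% and 20.9% on transcript length, so shares within the guardians hang on the length used.

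**Figure D3:**
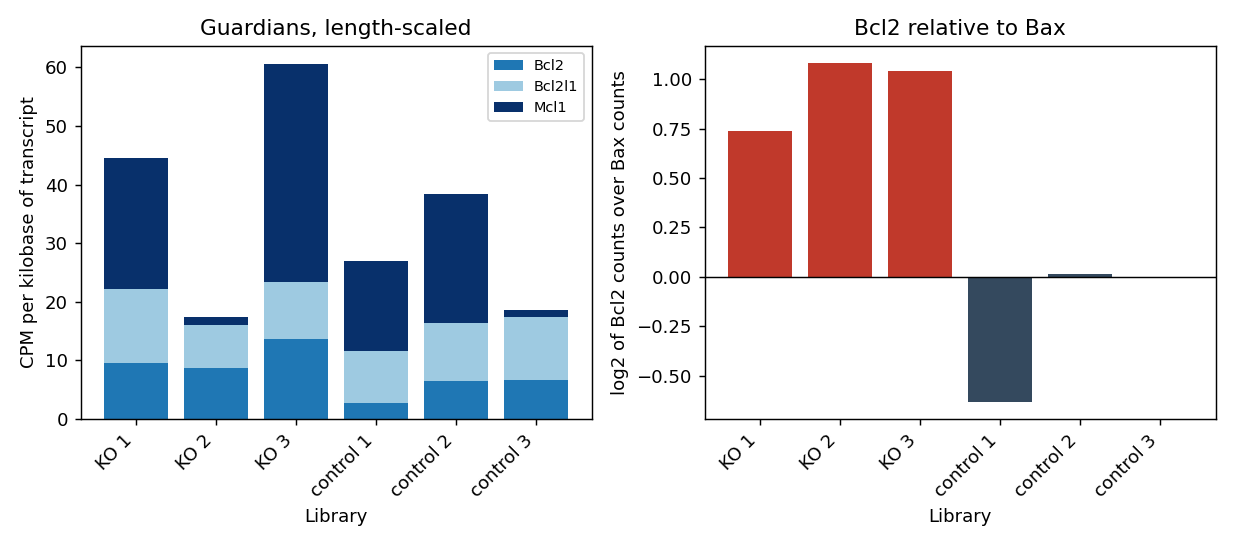
Left, length-scaled level of the guardians in CPM per kilobase, stacked as Bcl2, Bcl2l1 and Mcl1 in each library, in which the Mcl1 segment is small in KO 2 and control 3. Right, log2 ratio of Bcl2 counts to Bax counts in each library, from 0.74 to 1.08 in KO (red) and from -0.63 to 0.01 in control (blue), where the bars of control 2 and control 3 are near 0.

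Of the effectors, Bax, which moves from the cytosol to mitochondria on activation, had 41.1, 29.6 and 47.6 CPM in KO replicates 1 to 3. The control replicates had 30.5, 46.2 and 48.1 CPM. The ranges overlapped widely, and the log2 fold change was -0.08 (SE 0.28, adjusted p 0.962 in edgeR). Bak1, the effector that resides at the outer membrane, had 5.41, 5.85 and 4.29 CPM in KO replicates 1 to 3, against 2.88, 2.50 and 8.04 CPM in control replicates 1 to 3. The KO values lay between the control ones, and the log2 fold change was 0.21 (SE 0.67, adjusted p 0.954 in edgeR). Without control replicate 3, its highest library, the value was 0.94 (adjusted p 0.530 in edgeR). Per kilobase, Bax was the dominant effector transcript and made up between 93.3 and 96.8% of the effector sum over the KO libraries and between 94.3 and 98.1% over the control libraries.

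The log2 ratio of Bcl2 counts to Bax counts needs no scaling to library totals and was not scaled to length. It was 0.74, 1.08 and 1.04 in KO replicates 1 to 3. In control replicates 1 to 3 it was -0.63, 0.0145 and -0.00431. Bcl2 outnumbered Bax in counts in every KO library, the control libraries lay near or under parity, and the groups did not overlap. The means were 0.96 ± 0.19 in KO and -0.21 ± 0.37 in control libraries (SD, n = 3 each). The ratio holds the Bcl2 values and is not a result separate from them. The transcripts used had 7191 bases for Bcl2 and 867 for Bax, so parity in counts is not parity in transcripts. Per kilobase of transcript Bax exceeded Bcl2 in every library, with means of 45.5 against 10.6 in KO and 48.0 against 5.30 in control. Per kilobase of coding sequence the mean of Bcl2 was above that of Bax in KO (108 against 68.5) and below it in control (53.8 against 72.2). The whole guardian sum over the effector sum, per kilobase, was 0.897, 0.476 and 1.07 in KO replicates 1 to 3. In control replicates 1 to 3 it was 0.740, 0.708 and 0.317, and these groups overlapped, with KO replicate 2 and control replicate 3 lowest in their groups. On coding length the ratios were 2.76, 1.98 and 3.38 in KO replicates 1 to 3, against 1.97, 2.12 and 1.16 in control replicates 1 to 3. The same libraries were lowest and the groups again overlapped, but whether guardian transcripts exceed effector transcripts hangs on the length used.

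Of the BH3-only genes, Bcl2l11 encodes Bim, a potent activator of Bax and Bak1 that is induced when cytokines are withdrawn. It had 11.4, 9.62 and 8.79 CPM in KO replicates 1 to 3, against 3.99, 5.56 and 11.9 CPM in control replicates 1 to 3. Control replicates 1 and 2 were below all KO libraries and control replicate 3 above them, and the log2 fold change was 0.48 (SE 0.52, adjusted p 0.823 in edgeR). Without control replicate 3 it was 1.06 (unadjusted p 0.0663, adjusted p 0.338 in edgeR). Bid, which caspase 8 cleaves to link death receptors to mitochondria, had 62.6, 38.4 and 40.0 CPM in KO replicates 1 to 3. The control replicates had 52.3, 67.9 and 59.4 CPM. KO replicates 2 and 3 were below every control library and KO replicate 1 inside the control range. The log2 fold change of Bid was -0.35 (SE 0.25, unadjusted p 0.208, adjusted p 0.686 in edgeR), and without KO replicate 1 it was -0.63 (unadjusted p 0.0368, adjusted p 0.497 in edgeR). With length and GC trends removed, Bid was at -0.08 and Bcl2l11 at 0.26.

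Bad, a BH3-only protein held inactive by growth factor signalling through phosphorylation, had 25.8, 33.0 and 28.0 CPM in KO replicates 1 to 3, against 26.3, 28.4 and 39.8 CPM in control replicates 1 to 3. The ranges overlapped, with a log2 fold change of -0.12 (SE 0.26, adjusted p 0.926 in edgeR). Bbc3, which encodes the p53 target Puma, was low, with 2.01, 0.431 and 0.560 CPM in KO replicates 1 to 3. The control replicates had 0.824, 0.892 and 0.933 CPM. KO replicate 1 was the high library, the control values lay inside the KO range, and the log2 fold change of 0.18 (SE 1.02, adjusted p 0.977 in edgeR) turned its sign without KO replicate 1, where it was -0.85.

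Pmaip1, which encodes the Mcl1 antagonist Noxa, had 36 counts in KO replicate 3 and 0 counts in the other 5 libraries. This is 0.576 CPM in 1 library, the gene did not pass the filter on low counts, and it was not tested. A count of 0 in the other libraries limits its level to the floors given above.

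Ranked per kilobase, Bax was the most abundant member, with means of 45.5 CPM per kilobase in KO and 48.0 in control libraries. Bid and Bad followed, with Bid at 21.5 in KO and 27.4 in control and Bad at 19.9 in KO and 21.7 in control. Mcl1 averaged 20.3 CPM per kilobase in KO and 12.9 in control, but its libraries ranged too widely for these means to place it. Bcl2 came to 10.6 in KO and 5.30 in control, and Bcl2l1 to 9.90 in KO and 9.86 in control, so that Bcl2 stood level with Bcl2l1 in KO means and below it in control means. Bak1, Bcl2l11, Bbc3 and Pmaip1 were lowest, with Bak1 at 2.17 in KO and 1.87 in control and Bcl2l11 at 1.97 in KO and 1.42 in control. In library values per kilobase, Bid and Bad overlapped in both groups, as did Bak1 and Bcl2l11, and Bcl2 overlapped with Bcl2l1 in KO but not in control libraries. The transcript length used for Bcl2 was 7191 bases, of which 708 code. Per kilobase of coding sequence the order differed: Bcl2 came to 108 in KO and 53.8 in control, Bid to 80.3 in KO and 102 in control, and Bax to 68.5 in KO and 72.2 in control libraries. On this scale Mcl1 averaged 70.0 in KO and 44.3 in control, and its wide range again leaves its place unsettled.

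**Figure D4:**
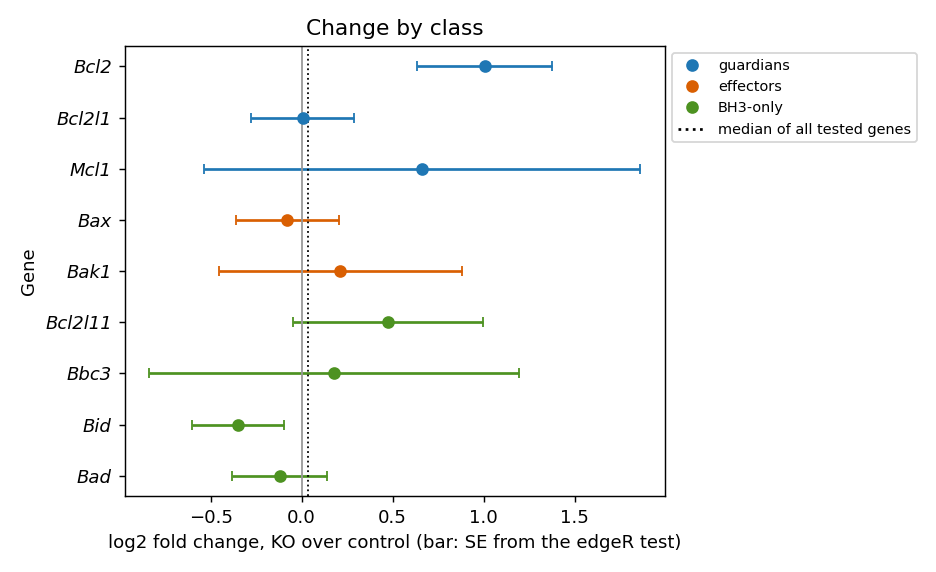
Log2 fold change of KO over control for the 9 tested members, coloured by class, with bars of 1 SE and a dotted line at the median of all tested genes (0.03). Bcl2 lies furthest from 0 at 1.01, Mcl1 has the widest bar with an SE of 1.20, and effectors and BH3-only genes lie between -0.35 and 0.48.

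Beyond the 10 members, 71 genes were listed for the rest of the pathway and its regulators, of which 67 were tested. By an unadjusted edgeR p under 0.05, 7 were higher and 6 lower in KO, beside 5.44% and 5.59% of all tested genes, and none passed an adjusted p of 0.05 in edgeR. DESeq2 gave adjusted p-values under 0.05 for 2 higher genes, Xiap and Mapk8, and 2 lower genes, Diablo and Trp53, beside 1.52% and 1.79% of all tested genes. With length and GC trends removed, 6 of the 13 genes no longer had an unadjusted p under 0.05. Xiap and Mapk8 kept it in every alternative run, and each of the other 11 lost it in at least 1. In 10 of the 67 genes every KO library was above every control library and in 6 below, against 10.7% and 8.76% of all tested genes. The median log2 fold change was 0.17 in the wider BCL2 family, 0.03 in the apoptosome and caspases, 0.33 in the caspase inhibitors and -0.36 in the death receptor arm. It was 0.22 both in the transcription factors known to act on members and in the kinases and ubiquitin enzymes known to act on their proteins, and -0.35 in the outer membrane partners.

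**Figure D5:**
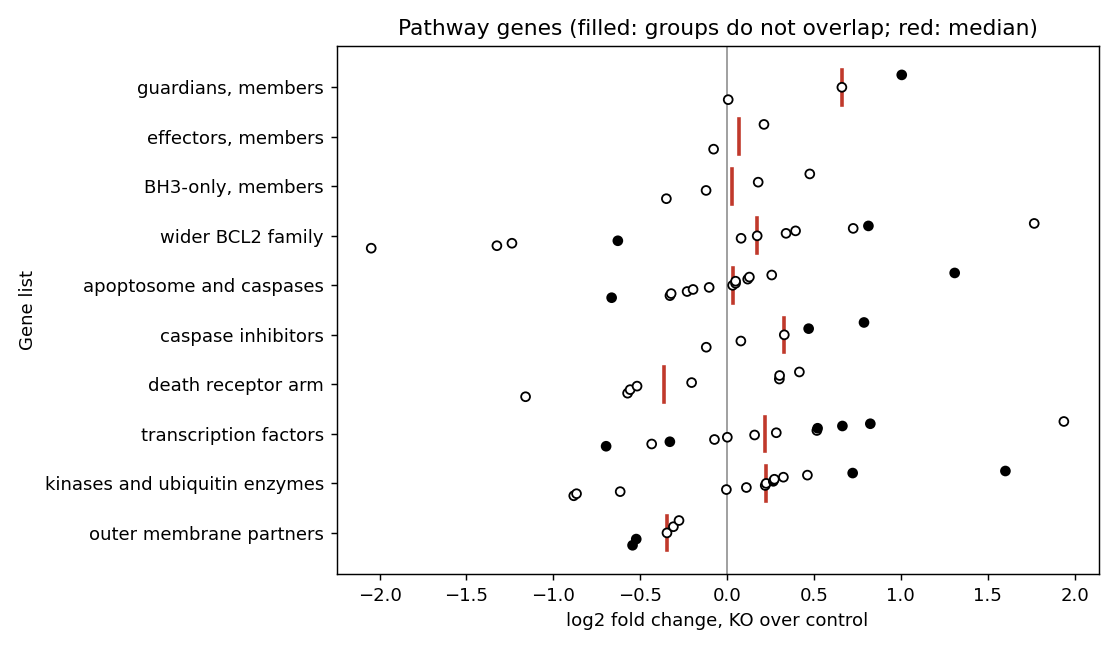
Log2 fold change of KO over control for each tested gene of the 3 classes and of 7 further lists, with 1 circle per gene, filled where KO and control libraries do not overlap, and a red bar at the median of the list. The caspase inhibitors lie mostly right of 0 with a median of 0.33, and all 5 outer membrane partners lie left of 0 with a median of -0.35, whereas Vdac3 was at 0.10 with length and GC trends removed.

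Of the wider BCL2 family, 11 of 14 genes were tested. Here 1 was higher and none lower by an unadjusted edgeR p under 0.05, against 5.44% and 5.59% of all tested genes. Bcl2l2, which encodes the further guardian Bcl-w, had 65.6, 35.8 and 47.4 CPM in KO replicates 1 to 3, against 24.8, 34.0 and 25.9 CPM in control replicates 1 to 3. The groups did not overlap, though KO replicate 2 and control replicate 2 were close, and the log2 fold change was 0.81 (SE 0.29, unadjusted p 0.0243, adjusted p 0.381 in edgeR). Bnip3, a mitophagy receptor, had a mean of 28.8 ± 9.44 CPM (SD, n = 3) over the KO libraries and of 44.5 ± 2.48 CPM (SD, n = 3) over the control libraries without overlap, and had a log2 fold change of -0.63 (adjusted p 0.478 in edgeR), or -0.27 with length and GC trends removed. Bnip3l, the mitophagy receptor used by maturing red cells, had a log2 fold change of 0.34 (adjusted p 0.591 in edgeR). Bcl2a1a lay between 0.218 and 1.14 CPM in KO and between 0.0585 and 0.231 CPM in control libraries, and its reads may be divided among near-identical copies of the gene. The BH3-only genes Bmf and Hrk and the further relative Bcl2l10 had 0 counts in all 6 libraries.

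In the apoptosome and caspase list all 13 genes were tested. An unadjusted edgeR p under 0.05 was found for 1 higher and 1 lower gene, beside 5.44% and 5.59% of all tested genes. Apaf1, the scaffold of the apoptosome, had 31.7, 17.9 and 30.8 CPM in KO replicates 1 to 3, against 4.80, 10.3 and 17.3 CPM in control replicates 1 to 3. The groups did not overlap, but KO replicate 2 and control replicate 3 nearly met, and the log2 fold change was 1.31 (SE 0.51, unadjusted p 0.0356, adjusted p 0.412 in edgeR). Diablo encodes Smac, which leaves mitochondria and displaces inhibitors from caspases. It had 106, 96.7 and 82.7 CPM in KO replicates 1 to 3, against 153, 130 and 169 CPM in control replicates 1 to 3. All KO libraries lay below all control libraries, with a log2 fold change of -0.66 (SE 0.18), an adjusted p of 0.284 in edgeR and 0.0249 in DESeq2. With length and GC trends removed it was -0.33 (unadjusted p 0.124 in edgeR). The initiator Casp2 at 0.26 and the flavoprotein gene Aifm1 at -0.32 overlapped between groups.

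All 5 caspase inhibitor genes were tested, and 2 were higher by an unadjusted edgeR p under 0.05, as 5.44% of all tested genes were. Xiap, the inhibitor that binds caspases 3, 7 and 9 and is the target of Smac, had 90.5, 107 and 98.7 CPM in KO replicates 1 to 3, against 44.0, 63.1 and 64.6 CPM in control replicates 1 to 3. The groups stood clearly apart, with a log2 fold change of 0.79 (SE 0.21), an adjusted p of 0.278 in edgeR and 0.0311 in DESeq2, and it was 0.45 with length and GC trends removed. Birc6, a giant ubiquitin ligase that inhibits caspases, had a mean of 104 ± 17.4 CPM (SD, n = 3) over the KO libraries and of 75.2 ± 4.47 CPM (SD, n = 3) over the control libraries without overlap, with a log2 fold change of 0.47 (adjusted p 0.421 in edgeR) that came to 0.07 (unadjusted p 0.724 in edgeR) with length and GC trends removed. Birc5, which encodes the mitotic protein survivin, had a log2 fold change of 0.33 and Birc2 one of -0.12, both with overlapping groups.

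In the death receptor arm all 8 genes were tested. Only 1 was lower by an unadjusted edgeR p under 0.05, as 5.59% of all tested genes were. Casp8, the initiator caspase that cleaves Bid, had 84.2, 75.0 and 81.2 CPM in KO replicates 1 to 3, against 142, 130 and 82.4 CPM in control replicates 1 to 3. Control replicate 3 was among the KO values, and the log2 fold change was -0.56 (SE 0.23, unadjusted p 0.0440, adjusted p 0.440 in edgeR). It was -0.35 (unadjusted p 0.0880 in edgeR) with length and GC trends removed. The adaptor Fadd had a log2 fold change of -0.52, the kinase Ripk1 one of 0.42 and the Casp8 inhibitor Cflar one of 0.30, and the groups overlapped in each.

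Of the 13 transcription factors 12 were tested, Trp73 having 0 counts in all libraries. Of these, 2 were higher and 1 lower by an unadjusted edgeR p under 0.05, against 5.44% and 5.59% of all tested genes. Trp53, which encodes p53, the activator of Bbc3, Pmaip1 and Bax, had 229, 181 and 196 CPM in KO replicates 1 to 3. The control replicates had 380, 362 and 239 CPM. The groups did not overlap, with KO replicate 1 and control replicate 3 close, and the log2 fold change was -0.70 (SE 0.22), with an adjusted p of 0.342 in edgeR and 0.0391 in DESeq2, and -0.38 with length and GC trends removed. Stat5b, a mediator of cytokine signals that raise Bcl2l1, had a mean of 54.5 ± 2.12 CPM (SD, n = 3) over the KO libraries and of 30.8 ± 10.7 CPM (SD, n = 3) over the control libraries, a log2 fold change of 0.82 (adjusted p 0.383 in edgeR), or 0.52 (unadjusted p 0.114 in edgeR) with those trends removed. Nfkb1, a subunit of NF-kB, had one of 0.66 (adjusted p 0.392 in edgeR), with 82.9 CPM in the lowest KO and 80.8 CPM in the highest control library. Myc had one of -0.43 (adjusted p 0.483 in edgeR) with overlapping groups.

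Among 13 kinases, ubiquitin ligases and a deubiquitinase, all tested, 1 was higher and 1 lower by an unadjusted edgeR p under 0.05. The shares over all tested genes were 5.44% and 5.59%. Mapk8, which encodes the stress kinase JNK1 known to phosphorylate Bcl2 and Bcl2l11 proteins, had 17.7, 21.0 and 26.5 CPM in KO replicates 1 to 3, against 7.30, 6.55 and 7.63 CPM in control replicates 1 to 3. Every KO library exceeded every control library by a wide margin. The log2 fold change was 1.60 (SE 0.33), with an unadjusted p of 0.00167 and an adjusted p of 0.255 in edgeR, and DESeq2 gave an adjusted p of 0.00477. Pim1, a survival kinase that phosphorylates Bad, had a mean of 26.6 ± 5.74 CPM (SD, n = 3) over the KO libraries and of 48.5 ± 14.6 CPM (SD, n = 3) over the control libraries with overlap, a log2 fold change of -0.87 (adjusted p 0.381 in edgeR). Its relative Pim2 had a log2 fold change of -0.88, also with overlap.

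All 5 outer membrane partners had negative log2 fold changes, and 2 were lower by an unadjusted edgeR p under 0.05, as 5.59% of all tested genes were. Vdac2, the channel that brings Bak1 and Bax to mitochondria, had a mean of 254 ± 46.5 CPM (SD, n = 3) over the KO libraries and of 371 ± 35.7 CPM (SD, n = 3) over the control libraries. The groups did not overlap, with a log2 fold change of -0.54 (adjusted p 0.368 in edgeR, 0.0584 in DESeq2). Mtch2, the membrane receptor of cleaved Bid, had a mean of 244 ± 53.2 CPM (SD, n = 3) over the KO libraries and of 351 ± 52.3 CPM (SD, n = 3) over the control libraries, also without overlap, with a log2 fold change of -0.52 (adjusted p 0.432 in edgeR). Bcap31 at -0.35 and Vdac3 at -0.28 overlapped between groups. With length and GC trends removed neither call stayed, with Vdac2 at -0.23 (unadjusted p 0.273 in edgeR) and Mtch2 at -0.33 (unadjusted p 0.137 in edgeR). Bcap31 was then at -0.0236 and Vdac3 at 0.10, so the direction was no longer shared.

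Several of these genes overlap others in RefSeq, and without a stated strand their reads cannot be told apart where exons coincide. Among the members these are Bcl2 with the non-coding gene Gm37053, Bcl2l1 with Cox4i2, Bak1 with Ggnbp1, Bcl2l11 with Acoxl and Bad with Gpr137. Bcl2 also overlaps the microRNA gene Mir3473f. Pseudogenes overlap Bid (Gm17812), Bcl2l1 (Gm32211) and Bad (Gm19053). Gm37053 had 52, 176 and 265 counts in KO replicates 1 to 3, against 245, 14 and 0 counts in control replicates 1 to 3. Bcl2 had 4104, 3783 and 6123 counts in the same KO libraries and 1193, 3190 and 2674 in the same control libraries. Apaf1 with Ikbip, Diablo with B3gnt4 and Vdac2 with Comtd1 overlap in the same way.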

How the data were processed

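Extraction from sorted LT-HSCs used TRIZOL and library preparation a TruSeq RNA kit, per the labels' protocols. The deposited values are raw counts per gene made by the authors, in 47561 rows per library, of which 2046 carry identifiers of assembled transcripts. Build mm10 comes from the submitters' processing notes, as do HISAT2 2.1 and cutadapt 1.16.5. The same notes list featureCounts 1.6.4, bcl2fastq 2.19 and also DESeq2 2.11.40.6. The strand and the handling of reads that map to several places are not given in the sources used here.

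Counts were tested in R 4.3.3 with edgeR 4.0.16: filterByExpr, trimmed mean of M values, the two-sided quasi-likelihood test of KO against control over 6 libraries, and Benjamini-Hochberg adjustment over all 16022 tested genes, with 0.05 as the threshold. The SE is the absolute log2 fold change over the square root of the F statistic. The common biological coefficient of variation was 0.755. All pairs of libraries differed by more than sampling noise (chi-square per gene at least 132). Alternatives used DESeq2 1.42.0, limma 3.58.1, other scalings and filters, a replicate block, length and GC offsets (89.5% of tested genes had values), totals without globin genes (0.741 to 2.43% of counts in KO, 0.0274 to 0.352% in control libraries) and each library left out. The steps were tested on simulated data. Levels per kilobase used the longest GENCODE transcript matched to RefSeq. Ratios of highest to lowest library set values under 3 counts to 3 counts.

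The members and lists were chosen with earlier results of these data known. All members are named, with up to 4 tested genes of smallest unadjusted p per list and the 3 genes most like the member of smallest p, except 1 gene not reported here. Sums of the other marker lists, not placed beside a result, were 33.7 to 37.7 CPM in KO and 31.0 to 88.9 CPM in control libraries for B cells, 245 to 262 against 128 to 208 CPM for T and NK cells, 10.1 to 54.4 against 67.7 to 267 CPM for monocytes and dendritic cells, and 15.4 to 36.8 against 12.0 to 25.6 CPM for stroma and endothelium. The T and NK cell sum was nearly all Nkg7, at 248, 250 and 245 CPM in KO replicates 1 to 3, against 207, 127 and 143 CPM in control replicates 1 to 3. Cd3e and Cd3g had 0 counts in every library but KO replicate 2. Igll1, Siglech, Itgax, Lepr and Cdh5 had 0 counts in all libraries.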

Additional observations from a re-analysis of the deposited data

How the results depend on the processing

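Bcl2 stayed positive under all 16 alternatives, from 0.68 to 1.33, and passed an adjusted p of 0.05 in none (0.124 to 0.766). Its unadjusted p was under 0.05 in all of them but the 1 without KO replicate 3. None of the 9 tested members passed in any alternative. Bcl2l1 turned negative with RLE size factors (-0.00833), upper quartile scaling (-0.00899), no filter (-0.0114), DESeq2 (-0.00832), limma-voom (-0.0214), the replicate block (-0.0237) and totals without globin genes (-0.00945). Bbc3 turned negative with limma-voom (-0.17), the replicate block (-0.19) and length and GC trends removed (-0.14), and the last also turned Cflar to -0.0341 and Vdac3 to 0.10 and ended 6 of the 13 unadjusted pathway calls (Diablo, Birc6, Casp8, Stat5b, Vdac2 and Mtch2). The causes of these turns were not tested. Leaving out 1 library in turn, or both KO replicate 2 and control replicate 3 (the pair chosen after seeing the data), gave ranges of -0.22 to 0.25 for Bcl2l1, -0.85 to 0.58 for Bbc3, -0.13 to 1.26 for Mcl1, -0.26 to 0.21 for Bax, -0.0885 to 0.94 for Bak1, -0.24 to 0.0823 for Bad, and -0.42 to 0.0830 for Birc2. It gave median ranges of 0.01 to 1.16 for guardians, -0.14 to 0.53 for effectors and -0.35 to 0.28 for BH3-only genes. Over all genes, edgeR called 1 lower gene with a filter of 5 CPM in 3 libraries, DESeq2 called 244 higher and 286 lower, and leaving out 1 library gave 0 to 1 higher and 0 lower. No alternative moved the median of all genes by more than 0.1. Deviations from the group means correlated weakly between same-numbered libraries (0.038, 0.016 and 0.033), and the other pairs gave -0.0389 to 0.00788. For each library the same-numbered partner had the highest value. Correlations this weak cannot tell whether the numbers pair the libraries. With the replicate block Bcl2 was 1.09 (adjusted p 0.487 in edgeR). On coding length the mean share of Bcl2 in the guardians was 54.5% in KO and 40.8% in control libraries. Depth limits Bbc3 and Pmaip1, at no more than 120 counts per library.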
